A study of Mus musculus with 24 samples.

Results

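The cytosolic ribosomal protein genes, which encode the protein part of the ribosomes that translate nuclear messages, were followed in the prefrontal cortex of mice with a chromosome 16 deletion. Members were chosen by a rule on names, with earlier results of these data known. A row of the deposited table counted if it carried a single gene symbol made of Rpl or Rps and digits, with at most 1 trailing a, l or x, or if the symbol was Rplp0, Rplp1, Rplp2 or Rpsa. Symbols of pseudogenes (those with -ps) and of the S6 kinases (Rps6k) were left out. This gave 72 of the 18820 measured genes: 43 of the large subunit, 26 of the small subunit and 3 of the stalk. Genes that fit the rule but had no row used here were not analysed.

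The data are 24 arrays, 12 from mutants and 12 from wild-type littermates, all of them males of 8 weeks on the C57BL6/J strain. Mutants carry the Df(16)A+/- genotype (Df16(A)+/- in the sample labels), a heterozygous engineered deletion that models the human 22q11.2 microdeletion syndrome. The labels number the arrays as replicates and do not say more about separate animals, so the p-values measure the spread between these arrays, each called a mouse here. Values are RMA (robust multi-array average) expression values on the log2 scale, and a log2 fold change is the mutant mean minus the wild-type mean. A value depends on the probes of its row, so levels of different genes are not compared as amounts of RNA.

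The ribosome joins a small subunit, which reads the message, to a large subunit, which links amino acids. Each subunit holds ribosomal RNA and many proteins, most of them present once, and cells keep the output of their genes balanced. The messages of these proteins usually begin with a C followed by a run of pyrimidines, the terminal oligopyrimidine (TOP) tract, through which the kinase mTORC1 and the protein Larp1 control their translation. In neurons, ribosomal protein messages also travel into axons and dendrites. Mammalian genomes carry many processed copies of these genes, most of them pseudogenes, so an array row named to a ribosomal protein can also detect related copies.

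The TOP tract is shown here because it is the sequence through which this group of messages is regulated together. In RefSeq starts of assembly GRCm38.p6, 58 of the 72 members had an entry. A C at the annotated start followed by at least 4 bases that are C or T, read on the gene's strand, was found at a start of 14 of these 58 (24.1%), against 813 of 27025 genes in the table (3.01%). The 14 were Rpl14, Rpl15, Rpl28, Rpl32l, Rpl35, Rpl35a, Rpl38, Rplp2, Rps10, Rps15a, Rps18, Rps21, Rps27 and Rps6. The sequences below run 5′ to 3′ over the 15 bases before and the 15 bases from the annotated start, with the tract in capitals. They are from Rpl15 (chr14:18270972-18271001, minus strand), Rps10 (chr17:27635230-27635259, minus strand), Rps6 (chr4:86857353-86857382, minus strand), Rpl38 (chr11:114668565-114668594, plus strand), Rps15a (chr7:118116133-118116162, minus strand) and Rps21 (chr2:180257364-180257393, plus strand).
Rpl15: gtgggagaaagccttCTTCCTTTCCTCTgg
Rps10: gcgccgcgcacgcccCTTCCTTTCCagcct
Rps6: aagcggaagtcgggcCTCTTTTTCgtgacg
Rpl38: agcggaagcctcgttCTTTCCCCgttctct
Rps15a: ctctctttctgccatCTTCCCTCgccggtg
Rps21: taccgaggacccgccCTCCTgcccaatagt

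Annotated starts without the motif are shown for contrast, since they include Rps4x, the member with the lowest adjusted p, and Rpl12, whose rows differed most. They lie at chrX:102189377-102189406 (Rps4x, minus strand), chr2:32961697-32961726 (Rpl12, plus strand) and chr2:26910792-26910821 (Rpl7a, plus strand).
Rps4x: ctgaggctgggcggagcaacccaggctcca
Rpl12: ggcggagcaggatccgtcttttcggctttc
Rpl7a: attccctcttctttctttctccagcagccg
In Rpl7a a run of pyrimidines spans the annotated start, where the first base is not a C. A wider search, chosen after these sequences were seen, asked for a run of at least 8 bases that are C or T within 25 bases on either side of the start. It was met by 32 of the 58 members (55.2%) and by 6014 of 27025 genes (22.3%). A match describes these letters at an annotated start and does not show where transcription begins in cortex.

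No ribosomal protein gene passed the test between genotypes in either direction (limma, Benjamini-Hochberg adjusted p under 0.05 over 18820 genes). Over all genes the test called 100 higher (0.531%) and 43 lower (0.228%) in mutants. At an unadjusted p under 0.05, 1 member was higher (Rpl10l) and 2 were lower (Rps4x and Rps21), where 6.11% of all genes were higher and 5.82% lower. The member counts lay below those shares. The lowest adjusted p among members was 0.364, for Rps4x (limma).

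The fold changes were small, and their intervals were narrow. The 95% interval of the log2 fold change lay within 0.1 of 0 for 50 of the 72 members, a fold of 0.933 to 1.07. It lay within 0.15 of 0 for 64 and within 0.2, a fold of 0.871 to 1.15, for 70. Rpl22 and Rpl10l were the exceptions at that bound. For most members, then, a change beyond these bounds lay outside the interval, while a smaller one did not. This holds for the brightest row of each gene on the array scale. Other rows of Rpl12 and Rps15a, described below, lay further from 0 (-0.22 and -0.12). The plot of fold changes for all members shows this.

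**Figure D1:**
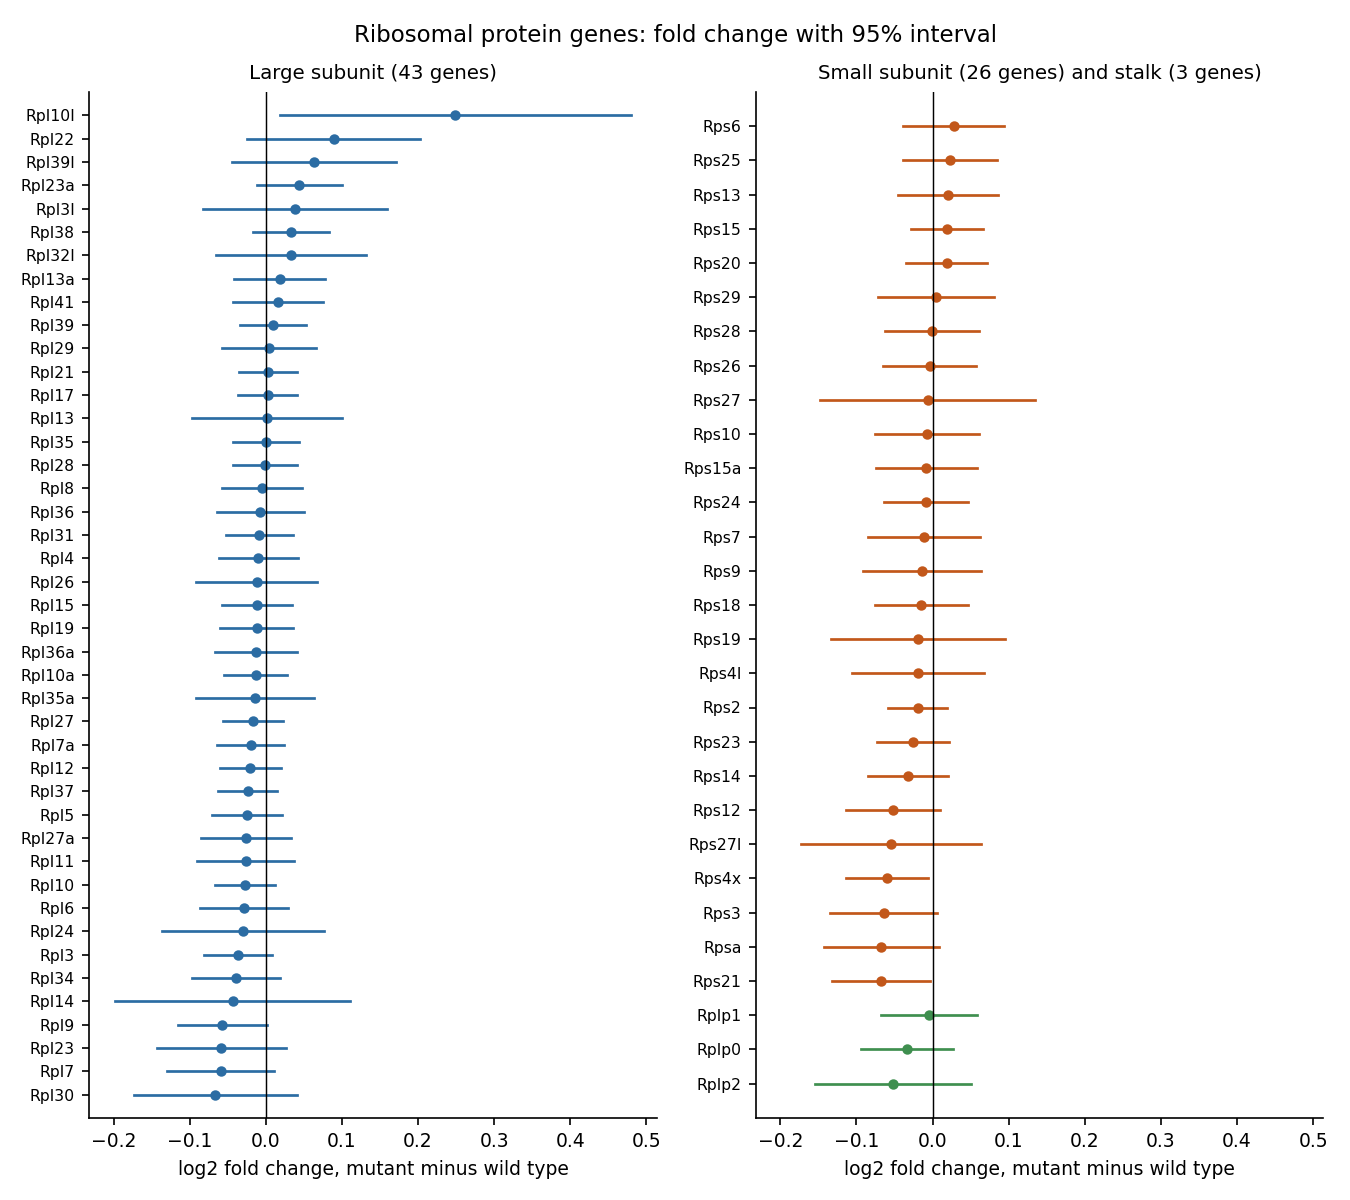
Log2 fold change (mutant minus wild type, horizontal axis) of the 72 members, as points with 95% intervals from limma, sorted within the large subunit (blue), the small subunit (orange) and the stalk (green), n = 12 mice per genotype. The intervals of Rpl10l, Rps4x and Rps21 leave out 0 before adjustment, and 51 of 72 points lie below 0 (32 when each array is centred on its median).

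The spread between mice was small. The SD between mice within a genotype had a median of 0.068 over the members, against 0.118 over all genes and 0.079 over other genes at or above the median level of all genes. It was lowest for Rpl21, at 0.032, and highest for Rpl10l, at 0.29, Rpl14, at 0.19, and Rps27, at 0.18.

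Of the 72 members 51 (70.8%) had values below 0, with a median log2 fold change of -0.012, but with each array centred on its median, which adds 0.014 to every log2 fold change, 32 lay below 0 and the median was 0.0021. Over all genes 51.0% lay below 0, with a median of -0.0014. With median centring 40.8% of all genes lay below 0, with a median of 0.012. Most members are bright, and bright genes as a whole leaned below 0. Of the 9410 genes at or above the median level, 64.8% lay below 0, with a median of -0.015, and an unadjusted p under 0.05 was reached by 3.28% with higher and 9.0% with lower values. Of the 65 members at that level, 73.8% lay below 0, with a median of -0.012, and 2 of the 65 had an unadjusted p under 0.05 with lower values. The median of these members was no lower than that of bright genes in general, while their share below 0 was higher. The sets were not matched in level, and whether level bears on the members' values was not tested.

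Within the large subunit, 28 of 43 genes lay below 0 (median -0.012), or 18 with median centring (median 0.0022), and 1 had an unadjusted p under 0.05. The lowest adjusted p on the lower side was that of Rpl9, a core protein of the subunit. Its wild-type values ran from 11.32 through a median of 11.44 to 11.52 and its mutant values from 11.27 through 11.38 to 11.49. The groups overlapped, with 10 of 12 mutants below the wild-type median, and the log2 fold change was -0.057 ± 0.028 (SE; limma, adjusted p = 0.431). Rpl7, an RNA-binding protein of the subunit, ran from 9.34 through 9.55 to 9.70 in wild types and from 9.39 through 9.47 to 9.64 in mutants. Its ranges overlapped from 9.39 to 9.64, and the log2 fold change was -0.059 ± 0.034 (limma, adjusted p = 0.510).

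Rpl5 and Rpl11 bind the 5S ribosomal RNA and, when assembly fails, the p53 regulator Mdm2. Rpl5 ran from 10.73 through 10.81 to 10.88 in wild types and from 10.71 through 10.78 to 10.86 in mutants (-0.024 ± 0.022; limma, adjusted p = 0.708). Rpl11 ran from 10.12 through 10.28 to 10.48 in wild types and from 10.19 through 10.27 to 10.35 in mutants (-0.026 ± 0.031; limma, adjusted p = 0.780). In both genes the genotypes overlapped. Rpl10, an X-linked gene whose protein joins late in assembly, had -0.027 ± 0.019 (limma, adjusted p = 0.603), with 10 of 12 mutants below the wild-type median.

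On the higher side of the large subunit, Rpl23a, which lies at the exit of the nascent chain, ran from 10.18 through 10.26 to 10.34 in wild types and from 10.15 through 10.30 to 10.42 in mutants. The lowest and the highest of the 24 values were both mutants, and 10 of 12 mutants lay above the wild-type median (0.044 ± 0.027; limma, adjusted p = 0.545). Rpl22, known for its role in T-cell development, ran from 8.26 through 8.43 to 8.78 in wild types and from 8.42 through 8.53 to 8.76 in mutants. The highest of the 24 values was a wild type, and 10 of 12 mutants lay above the wild-type median (0.089 ± 0.055; limma, adjusted p = 0.548). In Rpl22, arrays 1 to 12 gave 0.0037 and arrays 13 to 24 gave 0.17. Rpl38, known for the translation of Hox messages, had 0.033 ± 0.024 (limma, adjusted p = 0.621). Rpl21 and Rpl28, among the 5 brightest members, had 0.0029 ± 0.019 and -0.00097 ± 0.021 (limma, adjusted p = 0.972 and 0.992).

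Within the small subunit, 20 of 26 genes lay below 0 (median -0.012), or 12 with median centring (median 0.0013), and Rps4x and Rps21 had an unadjusted p under 0.05. Rps4x, an X-linked gene for a core protein of the subunit, ran from 10.25 through 10.34 to 10.49 in wild types and from 10.22 through 10.30 to 10.35 in mutants. The groups overlapped from 10.25 to 10.35, and 11 of 12 mutants lay below the wild-type median. The log2 fold change was -0.060 ± 0.026, a fold of 0.959 (limma, adjusted p = 0.364; 0.260 to 0.670 over the alternatives). Arrays 1 to 12 alone gave -0.067 and arrays 13 to 24 alone gave -0.068.

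Rps21, a small protein on the outside of the subunit, ran from 9.09 through 9.16 to 9.34 in wild types and from 8.99 through 9.11 to 9.23 in mutants. The groups overlapped from 9.09 to 9.23, with 9 of 12 mutants below the wild-type median (-0.067 ± 0.031; limma, adjusted p = 0.399). Arrays 1 to 12 alone gave -0.13 for Rps21 and arrays 13 to 24 alone gave -0.0058. Rps3, which sits at the entry of the message channel, had -0.064 ± 0.034 (limma, adjusted p = 0.473), and Rpsa, also known as the laminin receptor precursor, had -0.067 ± 0.037 (limma, adjusted p = 0.485). For Rps3 and for Rpsa 9 of 12 mutants lay below the wild-type median.

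Rps6, the substrate of the S6 kinases, was among the brightest members and ran from 12.84 through 12.96 to 13.09 in wild types and from 12.87 through 12.99 to 13.09 in mutants. Its groups covered nearly the same range (0.028 ± 0.032; limma, adjusted p = 0.778), and the sign turned between arrays 1 to 12 (0.085) and arrays 13 to 24 (-0.030). Rps19 and Rps14 are known from inherited and acquired anaemias. Rps19 had -0.019 ± 0.056 and Rps14 -0.032 ± 0.026 (limma, adjusted p = 0.927 and 0.655). Rps15 and Rps2, also among the brightest, had 0.019 ± 0.023 and -0.020 ± 0.019 (limma, adjusted p = 0.785 and 0.722).

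The stalk, formed by Rplp0, Rplp1 and Rplp2, recruits the elongation factors. All 3 genes lay below 0 (median -0.034), or 2 with median centring, and none reached an unadjusted p under 0.05. Rplp0 ran from 11.55 through 11.65 to 11.73 in wild types and from 11.50 through 11.60 to 11.74 in mutants (-0.034 ± 0.029; limma, adjusted p = 0.686). The lowest and the highest values were both mutants. Rplp1 had -0.0045 ± 0.031 and Rplp2, whose row was dim, -0.052 ± 0.050 (limma, adjusted p = 0.974 and 0.718).

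Paralogs known from single tissues were among the members, and Rpl10l, Rpl39l and Rpl3l were among the 5 dimmest. Rpl10l, a testis paralog of the X-linked Rpl10, ran from 4.21 through 4.65 to 5.35 in wild types and from 4.52 through 4.84 to 5.55 in mutants. The groups overlapped over most of the range, although 11 of 12 mutants lay above the wild-type median. The log2 fold change was 0.25 ± 0.11, with an interval of 0.018 to 0.48 (limma, adjusted p = 0.382; 0.269 to 0.955 over the alternatives). Arrays 1 to 12 alone gave 0.046, arrays 13 to 24 alone 0.44, and the arrays without mutant replicates 5, 9 and 10 gave 0.13. Rpl39l, of testis, had 0.063 ± 0.052 and Rpl3l, of muscle, 0.039 ± 0.059 (limma, adjusted p = 0.669 and 0.841). Rpl32l, named as a dim member, had 0.033 ± 0.048 (limma, adjusted p = 0.830). Rps4l, annotated as a transcribed pseudogene, had -0.019 ± 0.042 (limma, adjusted p = 0.898). The files give no detection call, so it is not known whether these rows measured a transcript above background.

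**Figure D2:**
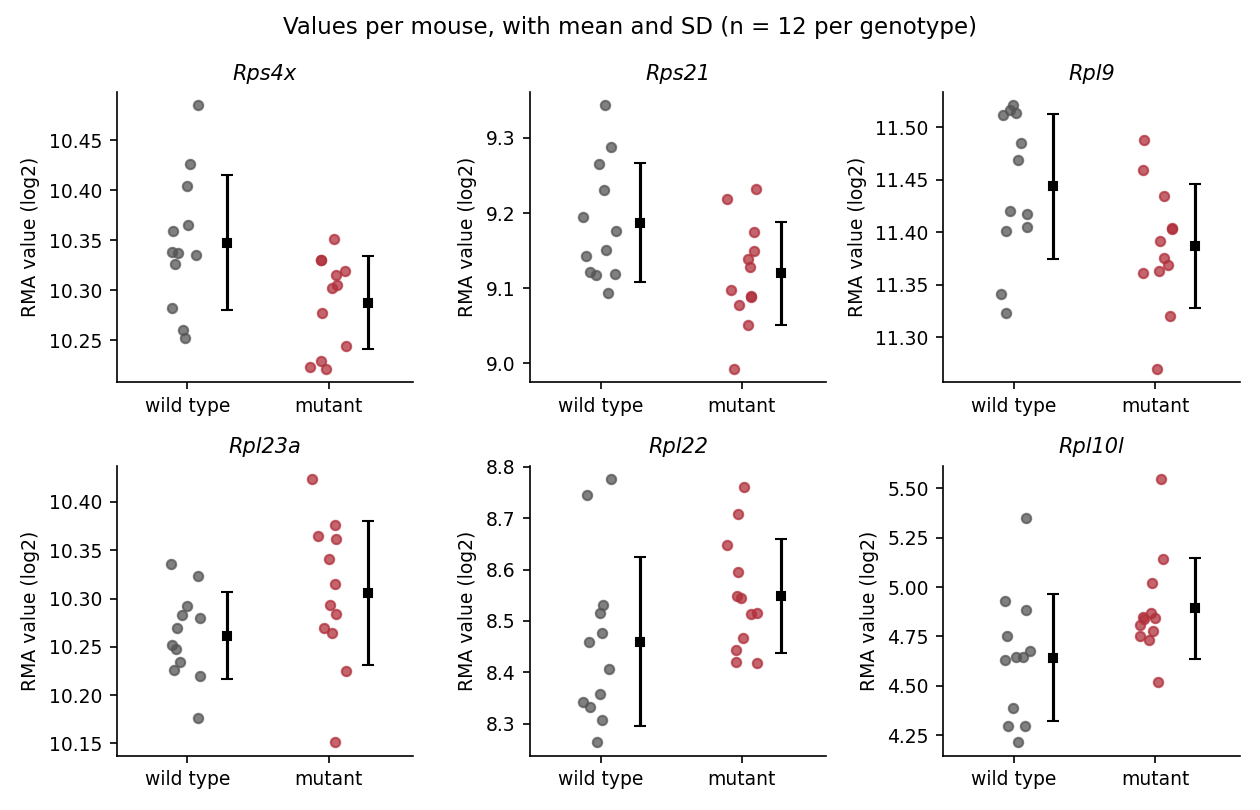
RMA value (log2, vertical axis) of 6 members in each of 12 wild-type (grey) and 12 mutant (red) mice, with the mean and SD beside the points. The genotypes overlap in every panel; Rps4x, Rps21 and Rpl9 have the lower mutant means and Rpl23a, Rpl22 and Rpl10l the higher ones.

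Arrays 1 to 12 and arrays 13 to 24 share no mouse. Between these ranges 39 of the 72 members had opposite signs, 28 lay below 0 in both and 5 above 0 in both. Below 0 were 65.3% of members in arrays 1 to 12 and 66.7% in arrays 13 to 24, against 56.6% and 46.3% of all genes. The same joint counts over all genes were not made, so the members' counts have no share to be set against. Of the 27 members named by rule 11 had opposite signs, among them Rpl11 (-0.092 and 0.024), Rps14 (-0.077 and 0.015) and Rpl38 (0.066 and -0.013). Those below 0 in both ranges included Rps4x, Rpl9 (-0.060 and -0.046) and Rpsa (-0.045 and -0.11). They were named for small p-values over all 24 arrays, so the same sign in both ranges is not separate support.

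Each mouse was also described by the median deviation of the members from their means over the 24 arrays. Over all 72 members it ran from -0.041 through 0.0021 to 0.062 in wild types and from -0.029 through -0.0047 to 0.044 in mutants. Over the small subunit it ran from -0.056 through -0.0044 to 0.104 in wild types and from -0.071 through -0.0056 to 0.066 in mutants. The genotypes overlapped in both cases, and the lowest small-subunit values were those of mutant replicate 9, wild-type replicate 6 and mutant replicate 1. The highest were those of wild-type replicate 3, mutant replicate 6 and wild-type replicate 12. The large subunit spread less, from -0.042 to 0.042 in wild types and from -0.022 to 0.044 in mutants. It holds 43 genes against 26 in the small subunit, and a median over fewer genes can vary more.

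**Figure D3:**
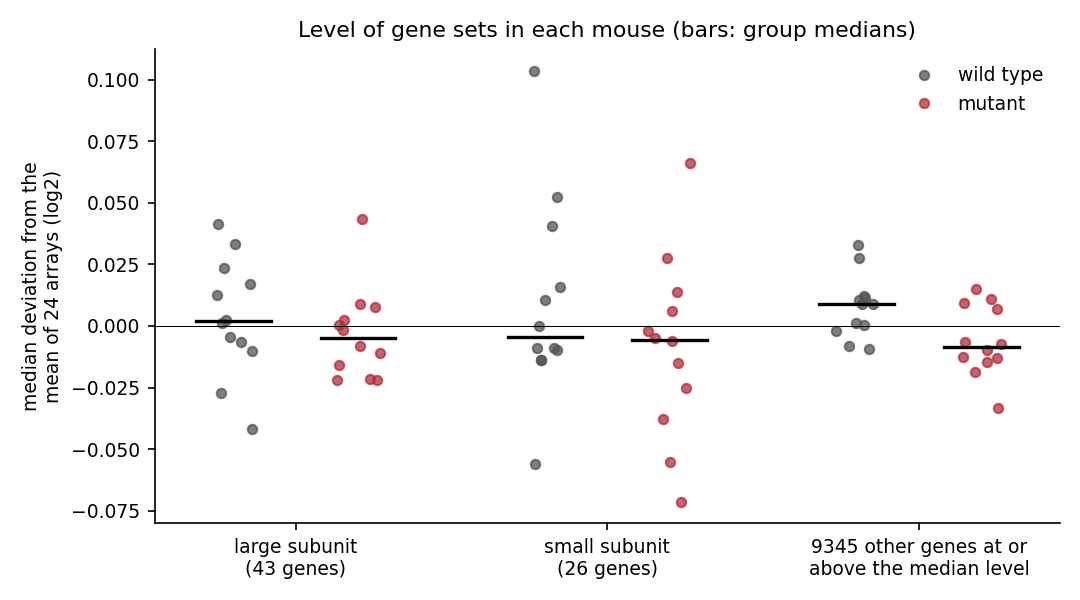
Median deviation of 3 gene sets from their mean over 24 arrays (log2, vertical axis) in each wild-type (grey) and mutant (red) mouse, with bars at the group medians, n = 12 per genotype. The small subunit spreads most, from -0.071 to 0.104, and the genotypes overlap in all sets.

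Members varied together over mice only weakly. With the genotype means removed, Pearson's correlation over the 24 mice had a median of 0.124 over the 2556 pairs of members, with quartiles of -0.091 and 0.339, and 65.1% of pairs lay above 0. Among pairs of other genes at or above the median level the median was 0.036. It was 0.185 within the small subunit, 0.089 within the large subunit and 0.135 between them. The median over members was 0.131 in arrays 1 to 12 and 0.099 in arrays 13 to 24. These values are a description: the pairs share mice, arrays and normalization, and rows of related copies can detect the same transcripts.

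The members most tied to the rest were Rps4x, Rps29, Rps24 and Rps23, each with a mean correlation of 0.27 with the other 71. The least tied were the dim paralogs Rpl3l (-0.18), Rpl10l (-0.096) and Rpl39l (-0.082). The first 3 components of the members' residuals held 21.2%, 17.5% and 12.8% of their variance.

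**Figure D4:**
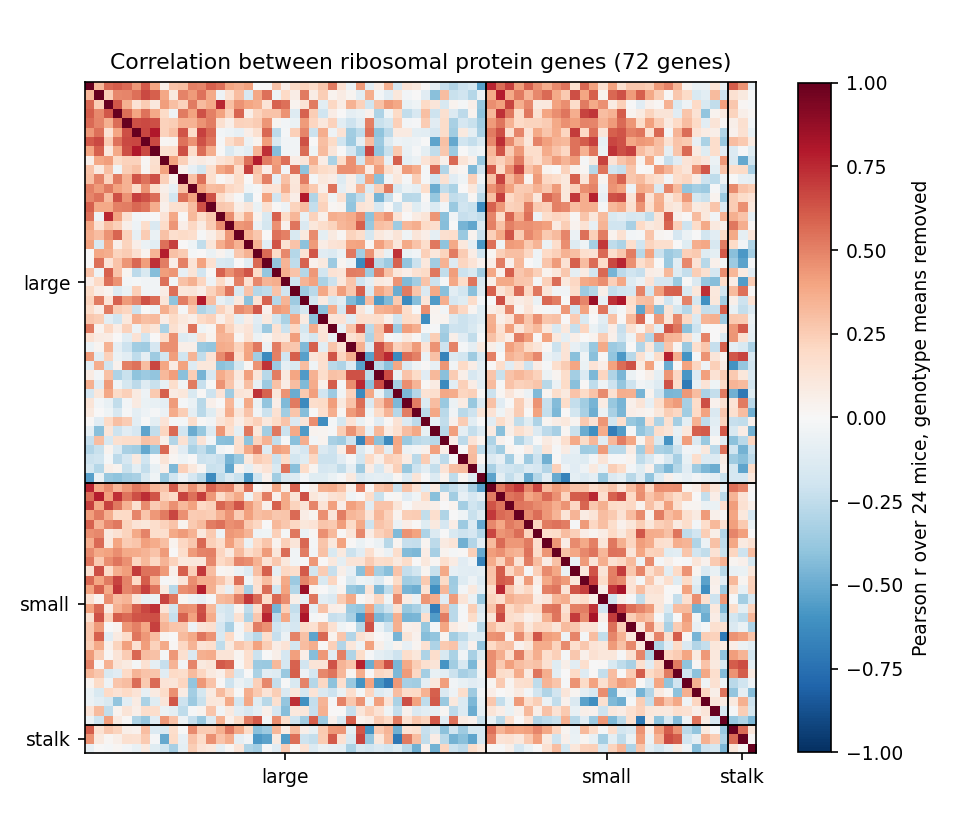
Pearson correlation over 24 mice, after removal of the genotype means, between all pairs of the 72 members, ordered within each subunit by mean correlation with the other members (red above 0, blue below 0). The small-subunit block has the higher median (0.185, against 0.089 in the large-subunit block).

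Members with the tract at an annotated start and those without it were compared by their medians. Of the 14 with it, 10 lay below 0, with a median log2 fold change of -0.0077. Of the 44 with a listed start and no tract there, 33 lay below 0, with a median of -0.015. The members with an unadjusted p under 0.05 and lower values were Rps21, with the tract, and Rps4x, without it. The difference between the sets was not tested, and under median centring 19 of the 72 members had the opposite sign.

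Because processed copies of these genes are many, the choice of row was examined. The 72 members had 381 rows with their symbol; 17 members had 1 row and Rpl21 had 41. For 69 members exactly 1 row was numbered among those of the gene's neighbours on its chromosome (5 on each side, widened by 1 Mb), and it is called the row at the gene's own place. Rpl29, Rpl31 and Rpl35a had none. The placing rests on the numbering of rows, not on probe positions. In 26 of the 69 this row was the brightest and in 43 a brighter row lay elsewhere, by a median of 0.31 in level. The gap was over 1 in 8 genes: Rps15 (1.10), Rpsa (1.18), Rps15a (1.22), Rpl24 (1.35), Rps10 (1.50), Rps2 (2.11), Rpl23 (3.31) and Rpl12 (5.48).

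In the 43 genes both rows mostly followed the same mice. Their correlation over the 24 mice had a median of 0.844 and ran from 0.065, in Rps4l, to 0.984. Rpl12 (0.154), Rps15a (0.286) and Rps2 (0.377) were also low. The fold change had opposite signs in the 2 rows in 6 of the 43 genes.

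With the row at the gene's own place, a setting added after the data were seen, again no member passed the test. Of 69 members 47 lay below 0, with a median of -0.012. An unadjusted p under 0.05 was reached by 5 members with lower values, against 5.84% of all genes, and by 1 with a higher value, against 6.11%. The 5 of 69 are near the share over all genes. The widest difference between rows was in Rpl12, a protein of the base of the stalk. At its own place it ran from 6.68 through 6.91 to 7.35 in wild types and from 6.50 through 6.73 to 7.07 in mutants. There 10 of 12 mutants lay below the wild-type median, and the groups overlapped between 6.68 and 7.07. The log2 fold change was -0.22 ± 0.076 (limma, adjusted p = 0.223), against -0.020 ± 0.020 in the brightest row (limma, adjusted p = 0.726), whose wild-type mean was 12.3.

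Rps15a, a small-subunit protein, differed likewise. Its own-place row ran from 8.33 through 8.67 to 8.82 in wild types and from 8.39 through 8.52 to 8.74 in mutants, with 11 of 12 mutants below the wild-type median. The log2 fold change was -0.12 ± 0.048 (limma, adjusted p = 0.294), against -0.0082 ± 0.032 in the brightest row. Rpl37 (-0.038 ± 0.018) and Rpsa (-0.059 ± 0.028) were the other unadjusted lower values besides Rps21 (limma, adjusted p = 0.407 and 0.410). Rps4x, at -0.034 in its own-place row, was not among them. Rpl12, Rps15a and Rpl37 were singled out after their values were seen. Which transcripts the brighter rows detect was not tested.

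**Figure D5:**
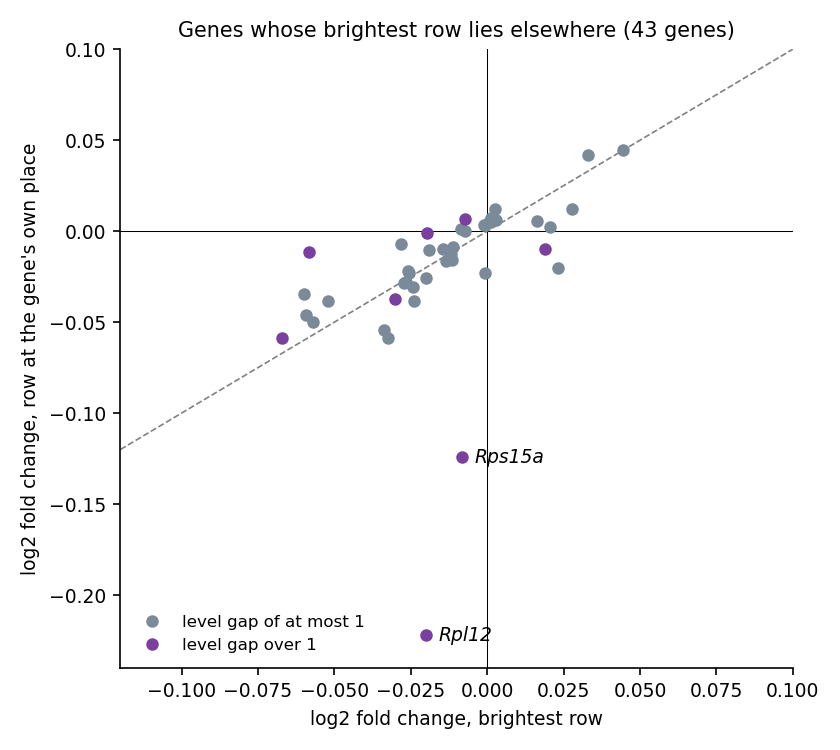
Log2 fold change (mutant minus wild type) in the brightest row (horizontal axis) and in the row at the gene's own place (vertical axis) for the 43 members where these differ, with the 8 genes whose level gap is over 1 in purple and the line of equal values dashed. Rpl12 (-0.22 against -0.020) and Rps15a (-0.12 against -0.0082) lie far below the line.

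Tested row by row among all 35556 rows, none of the 381 member rows passed. An unadjusted p under 0.05 was reached by 11 with lower and 1 with higher values, against 4.51% and 5.36% of all rows. The rows ran from -0.22 to 0.25, with a median of -0.0086, and 234 of 381 lay below 0. Over all rows 48.4% lay below 0, with a median of 0.0026. Counts of member rows with median centring were not made. Of the 55 members with several rows, all rows lay below 0 in 31 and above 0 in 5. Rows of 1 gene are not separate evidence, since some had the same mean over the 24 arrays, as in Rpl41 (12.64).

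Other ribosomal proteins are left out by the naming rule. The 3 measured of 8 listed were Rpl7l1 (-0.048), Rps3a1 (-0.026) and Fau (-0.0074), and none passed. Of 17 measured elongation and other TOP genes none passed, 1 had an unadjusted p under 0.05 with a lower value and 13 lay below 0 (median -0.028), or 11 with median centring. Eef1g and Eef1d, subunits of the factor that recharges the carrier of aminoacyl-tRNA, had -0.059 ± 0.027 and -0.12 ± 0.062 (limma, adjusted p = 0.394 and 0.477).

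Among 25 measured initiation factors none passed, 7 had an unadjusted p under 0.05, all with lower values, and 22 lay below 0 (median -0.045), or 20 with median centring. Eif3l, a subunit of the scaffold factor of initiation, ran from 9.98 through 10.07 to 10.16 in wild types and from 9.90 through 9.99 to 10.13 in mutants (-0.071 ± 0.028; limma, adjusted p = 0.317). Eif4e, the cap-binding protein, ran from 9.87 through 9.94 to 10.03 in wild types and from 9.73 through 9.88 to 10.04 in mutants (-0.070 ± 0.028; limma, adjusted p = 0.317). In each gene 10 of 12 mutants lay below the wild-type median and the groups overlapped. Over all genes 5.82% had an unadjusted p under 0.05 with lower values and 51.0% lay below 0, or 40.8% with median centring. Bright genes as a whole leaned the same way, with shares of 9.0% and 64.8% before centring. The counts in this list lay above these shares, and the difference was not tested.

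Ribosome biogenesis genes make and process ribosomal RNA and assemble the subunits. Of 38 measured none passed, 6 had an unadjusted p under 0.05, all with lower values, and 32 lay below 0 (median -0.033), or 27 with median centring. Over all genes 5.82% had an unadjusted p under 0.05 with lower values and 51.0% lay below 0, and over bright genes these shares were 9.0% and 64.8%. Gnl3, the nucleolar GTPase nucleostemin, ran from 7.88 through 8.00 to 8.20 in wild types and from 7.79 through 7.89 to 8.00 in mutants. All 12 mutants lay below the wild-type median, and the groups overlapped between 7.88 and 8.00. Its log2 fold change was -0.14 ± 0.034 (limma, adjusted p = 0.0534). It passed when genes under the lower quartile or the median of level were left out before the test (limma, adjusted p = 0.0352 and 0.0283). Bop1, which acts with Pes1 and Wdr12 in large-subunit maturation, had -0.074 ± 0.021 with all 12 mutants below the wild-type median (limma, adjusted p = 0.117).

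The regulators were measured in 17 genes of mTORC1 and TOP control, of which none passed and none had an unadjusted p under 0.05. In this list 8 lay below 0 (median 0.0053), with Mtor, the kinase itself, at 0.032 ± 0.020 and Mlst8, its partner, at 0.046 (limma, adjusted p = 0.545 for Mtor). Of 11 genes for the rescue of stalled ribosomes none passed and none had an unadjusted p under 0.05, with Ascc3 at -0.051 and Abce1 at -0.063. Of 14 measured p53 targets none passed and 1 had an unadjusted p under 0.05. Mdm2, the ubiquitin ligase of p53, had -0.11 ± 0.043 and Cdkn1a, a cell-cycle inhibitor, -0.15 ± 0.074 (limma, adjusted p = 0.277 and 0.439).

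The genotype labels and the tissue were checked. The deleted genes Mrpl40, Ufd1 and Dgcr8 fell by 0.76 ± 0.028, 0.88 ± 0.022 and 0.54 ± 0.029 on the log2 scale, with all 12 mutants below all 12 wild types (limma, adjusted p = 1.45e-16, 7.29e-20 and 5.2e-13). Array medians lay between 6.71 and 6.82 and correlations between arrays between 0.994 and 0.997. Markers of neurons were bright (9 measured, median level 12.7). None of the measured markers of neurons, astrocytes, oligodendrocytes, microglia, endothelium, blood or choroid plexus passed the test. All 7 oligodendrocyte markers lay below 0 (median -0.057), or 6 with median centring, as did all 5 measured blood markers (median -0.46), whose mean level ran from 5.93 to 8.62 in wild types and from 5.62 to 6.48 in mutants. Of the blood markers 3 had an unadjusted p under 0.05, all with lower values (Ngp -1.20, S100a8 -0.67 and S100a9 -0.46, genes of granulocytes). Ngp had a median of 6.60 and a highest value of 10.64 in wild types, against 5.90 and 7.49 in mutants. Their part in the members' values was not tested. In whole tissue, fewer cells of a type and less RNA per cell cannot be told apart.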

How the data were processed

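RNA from the prefrontal cortex of 24 mice was measured on Affymetrix arrays; per the labels' protocols, a miRNeasy kit gave the total RNA, of which 100 ng was labelled with a whole-transcript kit. The authors deposited log2 values, 1 per row and mouse, made with RMA per the submitters' processing notes. Neither the RMA version nor the build is given in the sources used here; the scale was read from the values, which lay between 1.82 and 14.49.

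Rows were named through the platform annotation: 21218 of 35556 had 1 symbol, 1881 several and 12457 none. Of several rows per gene the brightest over the 24 arrays was used. A further 60 rows that join a symbol fitting the rule with other symbols were left out, some of them for genes without a row used here. Of 18820 genes, 18790 matched the RefSeq gene table of GRCm38.p6. Genotypes were compared with limma 3.58.1 (lmFit, eBayes, genotype as the only term) in R 4.3.3, all 24 arrays together, adjusted by Benjamini-Hochberg over all genes with a threshold of 0.05; the step was tested on simulated data. Standard errors are moderated ones. Members and gene lists were chosen with earlier results of these data known. Members named are the 6 with the smallest p in each direction, the 5 brightest, the 5 dimmest, the tissue-restricted paralogs and a list of members with known roles; of each other list, the 2 genes with the smallest p. Alternatives covered normalization, centring, variances, array weights, filters on dim genes, the row per gene, a replicate block and the running array number (1 to 12 and 13 to 24, with 7 and 5 mutants).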

Additional observations from a re-analysis of the deposited data

How the results depend on the processing

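No ribosomal protein gene passed the adjusted threshold in the main analysis or in any of the 14 alternatives. The 3 members with an unadjusted p under 0.05 became 1 after quantile normalization, 5 with a variance trend, 0 without mutant replicates 5, 9 and 10, and 6 with the row at the gene's own place; the last 2 settings were chosen after seeing the data. Of the other translation genes, 1 (Gnl3) passed instead of 0 with genes under the lower quartile left out, and 1 (Gnl3) with genes under the median left out. For these 2 filters fewer genes were tested. Elsewhere the cause was not tested.

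The members' median of -0.012 became 0.0021 under median centring, where the median over all genes was 0.012, and -0.0029 after quantile normalization. Signs differed from the main analysis in 19 and 14 members. They differed in 16 members in arrays 1 to 12 (median -0.018, against -0.012 over all genes). In arrays 13 to 24 they differed in 23 members (median -0.019, against 0.0064 over all genes). None of these members passed the threshold in either analysis, so no call turned direction.

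With the replicate number as a block, 0 members passed, 2 had an unadjusted p under 0.05 and the lowest adjusted p was 0.269 (limma, Rpl10l). Over all genes 147 passed. Deviations of mice with the same number correlated between -0.0763 and 0.311. Their median was 0.0957, against -0.0142 for mutants and wild types with different numbers. Of the 12 same-number pairs 6 lay over 0.1, and 2 of 12 mutants were closest to their own number. The numbers were not taken to pair the mice in the main fit, although a weak shared part was not excluded.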

Other observations

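Small nucleolar RNAs guide the modification of ribosomal RNA, and many are cut from introns of ribosomal protein genes. By the RefSeq gene table, 19 members hold such genes, and 14 of them in 12 hosts had a row of their own. None passed the test between genotypes (limma, adjusted p under 0.05), and 2 had an unadjusted p under 0.05, both with lower values in mutants, where 5.82% of all genes were lower at that threshold. All 14 log2 fold changes lay below 0, from -0.14 to -0.0013, with a median of -0.032, and 11 of 14 lay below 0 with each array centred on its median. Over all genes 51.0% lay below 0, or 40.8% with median centring. Snord42b, inside Rpl23a, ran from 8.77 through a median of 8.93 to 9.07 in wild types and from 8.69 through 8.78 to 9.01 in mutants, with 11 of 12 mutants below the wild-type median (-0.11 ± 0.037 SE; limma, adjusted p = 0.210). Its host had 0.044 ± 0.027. Snora69, inside Rpl39, ran from 6.89 through 7.29 to 7.72 in wild types and from 7.01 through 7.18 to 7.33 in mutants, again with 11 of 12 below (-0.14 ± 0.065; limma, adjusted p = 0.383), and its host had 0.0096 ± 0.021. Whether such a row reports the small RNA or the intron that holds it was not tested.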
